A study of Homo sapiens with 16 samples.

Results

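The response of A549 cells to palbociclib and indisulam given together was described here, gene by gene, as the difference between the combination and no treatment. A549 is an established human lung cancer cell line of epithelial origin. The members were the 2 untreated libraries (UT) and the 2 combination libraries (P+I) of this line, 4 of the 16 libraries of the study, chosen by their labels. All 15744 genes with enough counts, of 58676 gene identifiers in the files, were compared. The combination libraries came from cells given 2 µM palbociclib and 3 µM indisulam for 16 h. The other A549 libraries, used only to place the combination, came from cells given palbociclib alone (PD, 2 µM) or indisulam alone (IN, 3 µM) for the same time, with 2 libraries each. The remaining 8 libraries were made from SUM159, a breast cancer line, with the same doses. The study calls its duplicates technical, so every p-value measures the spread between these libraries and not that between independent cultures.

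Palbociclib inhibits CDK4 and CDK6, the kinases that with cyclin D phosphorylate the retinoblastoma protein RB1. Unphosphorylated RB1 and its relatives hold E2F transcription factors in check, and E2F factors drive the genes of the G1/S transition and DNA replication. Genes of G2 and mitosis are switched on later, largely by the MYBL2 and FOXM1 complexes, and are repressed in resting cells by the DREAM complex. Indisulam is a molecular glue that brings the splicing factor RBM39 to the ubiquitin ligase substrate receptor DCAF15, so that RBM39 protein is degraded and splicing is disturbed. A549 cells carry functional RB1 and have constitutively high NRF2 activity.

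The 4 libraries held between 18306636 and 20955845 gene counts, and 3 counts, the smallest level regarded as seen, were worth 0.143 to 0.164 CPM (counts scaled to a common library size). Epithelial markers (KRT8, KRT18, KRT19, KRT7, EPCAM and CDH1) summed to between 11300 and 13100 CPM in each library. The summed markers of leukocytes (5 genes, at most 1.10 CPM), endothelium (3 genes, at most 1.34 CPM) and fibroblasts (4 genes, at most 3.58 CPM) were far below these. So were those of type II alveolar cells (3 genes, at most 0.334 CPM). Some single markers lay above the floor of 3 counts, among them COL1A1 (51 to 64 counts), PECAM1 (11 to 20) and LYZ (5 to 12). CD3E and SFTPB had no count in any of the 4. CDKN2A, whose locus A549 is known to have lost, was counted 24 to 48 times per library, above the floor of 3 counts, so this check did not meet the label. The epithelial markers met it, and markers of type II alveolar cells were absent or at single counts.

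The combination changed the level of 9098 of the 15744 genes (57.8%), with 4316 higher (27.4%) and 4782 lower (30.4%), at an adjusted p under 0.05. Scaled to total counts instead, 57.8% of the calls were higher rather than 47.4%, and the median log2 change of all genes shifted by 0.0879. All log2 changes here are relative to the trimmed-mean scaling of the fit, under which the median gene moved by 0.00137, and each ± is the standard error (SE) of the fitted change with 2 libraries per group. Among the calls, 871 genes (5.53% of those tested) were at least 2-fold higher and 1202 (7.63%) at least 2-fold lower. Large decreases and large increases did not lie at the same levels of expression. Among genes that averaged 5 CPM or more across the A549 groups, 195 genes were at least 2-fold higher and 693 lower, and at 4-fold the counts were 9 and 181. In bulk RNA, fewer cells of a cycle phase and less RNA of a gene per cell cannot be told apart.

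**Figure D1:**
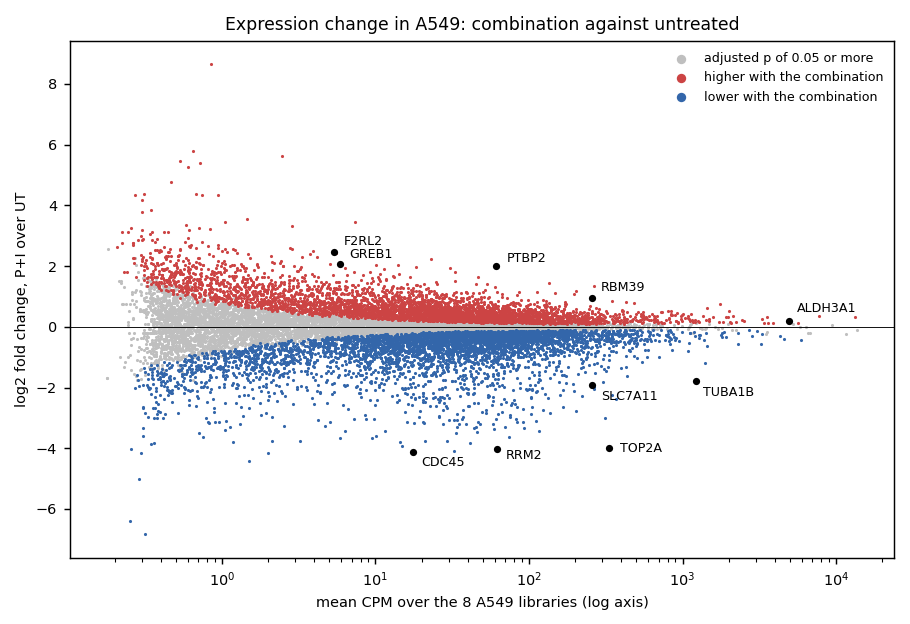
Log2 fold change of P+I over UT (vertical axis) against the mean level over the 8 A549 libraries in CPM (horizontal log axis), 1 point per gene for 15744 genes. Grey points had an adjusted p of 0.05 or more, red points were called higher and blue points lower. Decreases beyond 3 on the log2 scale reach up to TOP2A at high levels, while increases of that size lie almost all below 5 CPM.

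Against the single drugs, which share the combination libraries, the combination differed from palbociclib alone in 8108 genes (51.5%), 3733 higher (23.7%) and 4375 lower (27.8%), among them 444 at least 2-fold higher (2.82%) and 965 at least 2-fold lower (6.13%). It differed from indisulam alone in 6106 genes (38.8%), 2935 higher (18.6%) and 3171 lower (20.1%), with 289 (1.84%) and 493 (3.13%) past 2-fold. Of the calls against indisulam 48.1% were higher, and 61.2% with total-count scaling. Since each of these comparisons uses the same 2 combination libraries, their values are set side by side below and their agreement is not counted.

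The direct partners of palbociclib's target moved in both directions. The list held 14 tested genes for cyclin D, CDK4, CDK6, the RB family and the INK4 and CIP inhibitors. Of these 4 were higher (28.6%, against 27.4% of all genes) and 6 lower (42.9%, against 30.4%). CDK4 was at 183 and 183 CPM in UT and 111 and 112 CPM in P+I, a fall of 0.71 ± 0.05 (SE) on the log2 scale (adjusted p 2.3e-08). CDK6 lay at 74.4 and 78.2 CPM in UT and 82.5 and 75.1 CPM in P+I, so its groups overlapped and it was not called (adjusted p 0.479). CCND1, the main cyclin D of these cells, rose by 0.22 and CCND3 by 0.27.

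The 3 pocket proteins, which bind E2F factors, parted. RBL1 (p107) fell from 41.6 and 43.3 CPM to 5.20 and 5.53 CPM (log2 change -2.98 ± 0.10, adjusted p 2.8e-12), RB1 fell by 0.64, and RBL2 (p130), the pocket protein of quiescent cells, rose from 76.0 and 74.96 CPM to 106 and 106 CPM (0.49 ± 0.05). For RB1 the difference from palbociclib alone, which averaged 51.4 CPM, did not pass the test (-0.02 on the log2 scale, adjusted p 0.742), whereas RBL1 was lower than with either drug (13.2 CPM in PD, 16.3 CPM in IN). Of the kinase inhibitors, CDKN2C (p18) fell by 1.45, CDKN2D (p19) by 1.11 and CDKN1B (p27) by 0.52, and CDKN1A (p21) rose by 0.53. CDKN2A, CDKN2B and CDKN1C did not exceed 2.48 CPM in any of the 4 libraries and were not called.

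Of the 10 E2F and DP genes 6 fell (60.0%, against 30.4% of all genes) and 1 rose (10.0%, against 27.4%). With total-count scaling 2 rose. The activators E2F1 (log2 change -2.37 ± 0.09) and E2F2 (-2.78 ± 0.10) and the late repressors E2F7 (-3.18 ± 0.09) and E2F8 (-3.43 ± 0.14) fell most. E2F1 stood at 41.5 and 38.7 CPM in UT and at 8.05 and 7.45 CPM in P+I, and E2F8 at 22.3 and 23.4 CPM and at 2.12 and 2.11 CPM. E2F4, a repressor that partners p107 and p130, fell by 0.32. E2F3, E2F5 and E2F6 were not called. The partner proteins again went opposite ways, with TFDP1 at 178 and 178 CPM falling to 88.1 and 86.9 CPM and TFDP2 rising from 33.5 and 32.1 CPM to 56.6 and 57.7 CPM. The groups did not overlap for any of these called genes, against 38.3% of all genes without overlap in the higher direction and 39.0% in the lower.

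All 14 genes for CDK1, CDK2, their cyclins and the CDC25 and WEE family regulators fell, with a median log2 change of -1.73. CCNA2, the S-phase and G2 cyclin, went from 141 and 130 CPM to 13.1 and 14.3 CPM (log2 change -3.31 ± 0.07). CDK1, the mitotic kinase, went from 174 and 175 CPM to 23.3 and 23.9 CPM (-2.89 ± 0.05). With indisulam alone CDK1 averaged 167 CPM and CCNA2 105 CPM, and with palbociclib alone 45.1 and 23.4 CPM, so that the combination was below palbociclib by 0.94 and 0.78 on the log2 scale. Of the 14 genes 9 were lower than with palbociclib alone and 2 higher, the mitotic cyclins CCNB1 (0.28, adjusted p 0.0015) and CCNB2 (0.60, adjusted p 9.1e-07), and WEE1, CDC25B and CKS2 were not called. The CDK-activating kinase split by subunit. Cyclin H (CCNH) fell by 1.28, the kinase CDK7 rose by 0.42 and the assembly factor MNAT1 was at 23.1 and 25.2 CPM before and 24.3 and 23.6 CPM after, and not called.

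Replication genes held the largest fall among coding genes averaging 5 CPM or more. Of 53 origin and fork genes 51 fell (96.2%, against 30.4% of all genes) and none rose. The median log2 change was -1.77, and 46 genes were at least 2-fold lower. CDC45, part of the replicative helicase (chr22:19479457-19520612), was at 43.6 and 40.0 CPM in UT and 2.53 and 2.30 CPM in P+I, 17.3-fold lower (log2 change -4.11 ± 0.11, adjusted p 2.4e-13). Palbociclib left 10.3 CPM and indisulam 15.3 CPM on average, and the combination was below both (log2 differences -2.09 and -2.66). CLSPN, the checkpoint mediator claspin, fell by 3.77, POLE2, a subunit of the leading-strand polymerase, by 3.61, and MCM10, a helicase activator, by 3.48. The origin recognition subunit ORC4 (log2 change 0.09) and RNASEH2A (-1.19 ± 0.61) were the 2 genes not called, and both were named after their values were seen. RNASEH2A averaged 0.346 CPM over the 8 A549 libraries, near the floor of 3 counts, so its change was poorly measured.

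Of 14 genes of deoxynucleotide supply 10 fell (71.4%, against 30.4% of all genes) and 3 rose (21.4%, against 27.4%). The median log2 change was -1.28. RRM2, the S-phase subunit of ribonucleotide reductase (chr2:10120698-10211725), went from 136 and 141 CPM to 9.11 and 8.11 CPM (log2 change -4.01 ± 0.07) and thymidylate synthase TYMS from 202 and 202 CPM to 22.2 and 23.5 CPM (-3.14 ± 0.05). RRM2B, the counterpart of RRM2 in cells outside S phase, rose from 53.8 and 58.3 CPM to 80.4 and 74.0 CPM (0.46 ± 0.06). DCTD rose by 0.32 and SAMHD1, a deoxynucleotide hydrolase, by 0.25. DCK, which salvages deoxycytidine, fell by 0.51 and the nucleoside transporter SLC29A1 by 1.06. SAMHD1 lost its call without the second untreated library (0.20, adjusted p 0.103).

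All 63 spindle, kinetochore and FOXM1-network genes fell, with a median log2 change of -2.34, and 57 of them were at least 2-fold lower. TOP2A, the topoisomerase that untangles chromosomes, was at 751 and 807 CPM in UT and 46.2 and 51.2 CPM in P+I (log2 change -4.00 ± 0.06, adjusted p 2.3e-15). CENPI, a centromere protein, fell by 3.93 and SPC25, of the NDC80 kinetochore complex, by 3.66. MYBL2, which starts the mitotic programme, went from 173 and 167 CPM to 14.4 and 13.1 CPM (-3.63 ± 0.06). The smallest falls of the list were those of LIN54 (-0.51) and LIN9 (-0.54), constitutive subunits of the complexes that MYBL2 joins, named after their values were seen. All 8 condensin subunits were at least 2-fold lower, from NCAPH (-4.10, from 77.8 and 75.7 CPM to 4.05 and 4.92 CPM) to NCAPH2 (-1.22). The median of the mitotic list was -0.298 against palbociclib alone and -2.07 against indisulam alone, and that of the condensins -0.826 and -1.51.

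Sequences before the start sites are shown for 5 of these falls, because the letters recognised by E2F factors and the cell cycle homology region (CHR) bound by DREAM and MYBL2 complexes can be read in them. They are the 4 largest falls among coding genes averaging 5 CPM or more whose last 100 bases before the RefSeq start hold E2F or CHR letters, and the largest fall with both, so they were picked for holding them. The windows are chr2:168890431-168890530 (SPC25, minus strand), chr12:6851287-6851386 (CDCA3, minus), chr12:53268199-53268298 (ESPL1, plus), chr16:85688955-85689054 (GINS2, minus) and chr4:17810879-17810978 (NCAPG, plus) on GRCh38.p14. CDCA3, a trigger of mitotic entry, fell by 3.33, the separase gene ESPL1 fell by 3.31, GINS2, a helicase subunit, by 3.21 and the condensin gene NCAPG by 3.20. Capitals mark E2F letters (TTGGCGC or TTGCCGC or TTCGCGC or TTCCCGC), CHR letters (TTTGAA or TTCGAA) and CCAAT, each on either strand.
SPC25: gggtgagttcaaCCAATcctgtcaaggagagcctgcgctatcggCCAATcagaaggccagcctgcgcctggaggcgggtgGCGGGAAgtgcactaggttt
CDCA3: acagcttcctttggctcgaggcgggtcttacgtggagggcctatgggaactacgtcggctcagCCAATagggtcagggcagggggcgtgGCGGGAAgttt
ESPL1: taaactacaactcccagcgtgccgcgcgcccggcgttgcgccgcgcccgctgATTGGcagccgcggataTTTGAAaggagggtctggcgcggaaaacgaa
GINS2: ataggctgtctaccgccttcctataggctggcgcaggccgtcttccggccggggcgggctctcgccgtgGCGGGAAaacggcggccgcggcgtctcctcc
NCAPG: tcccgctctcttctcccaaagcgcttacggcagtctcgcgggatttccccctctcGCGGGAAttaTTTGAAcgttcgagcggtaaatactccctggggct

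The same letters were counted over whole RefSeq promoter windows (250 bases before to 50 after the start), which were found for 10760 of the 13085 coding genes tested (82.2%). E2F letters stood in 20.5% of all these promoters and in 31.6% of the 786 promoters of genes at least 2-fold lower. For CHR letters the shares were 11.3% and 22.0%, for CCAAT 36.5% and 44.5%, and for E2F with CHR 2.08% and 5.85%. Allowing the E2F letters to end in G as well, a choice made after seeing the data, gave 36.3% and 49.2%. The median GC content was 65.3% over all promoters and 65.2% over the lower genes. For genes at least 2-fold higher only 74.8% had a promoter sequence, fewer than the 80% needed, so their shares are void. The counts at 2-fold therefore do not show that CHR or other letters are particular to the falls. Among calls of any size, promoters were found for 82.8% of lower, 81.3% of higher and 82.5% of uncalled genes. In that order E2F letters stood in 26.3%, 16.3% and 18.4% of them, and CHR letters in 12.3%, 11.4% and 10.3%. The median GC content was 66.7%, 63.3% and 65.3%, and its part in these shares was not tested. A match of letters is a description of the sequence, not a bound site.

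Repair genes tied to replication fell with it. Of 37 homologous recombination and Fanconi anaemia genes 34 fell (91.9%, against 30.4% of all genes) and 1 rose (2.7%, against 27.4%). The median log2 change was -1.64. FANCI, of the complex that is ubiquitinated at crosslinks, went from 258 and 258 CPM to 22.3 and 25.7 CPM (-3.43 ± 0.07), POLQ, the end-joining polymerase, fell by 3.19, and FANCA, a core complex subunit, by 3.03. FANCF was the exception, rising from 11.1 and 11.6 CPM to 16.8 and 17.2 CPM (0.59 ± 0.09). At the nuclear envelope, 6 of 11 genes fell (54.5%, against 30.4% of all genes) and 1 rose (9.09%, against 27.4%). With total-count scaling 2 rose. The lamin B receptor LBR fell by 1.59 and LMNB2 by 1.34 beside LMNB1 (-3.34). LEMD2 rose by 0.19, a call lost without the first untreated library (adjusted p 0.0741) or the second combination library (0.065).

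**Figure D2:**
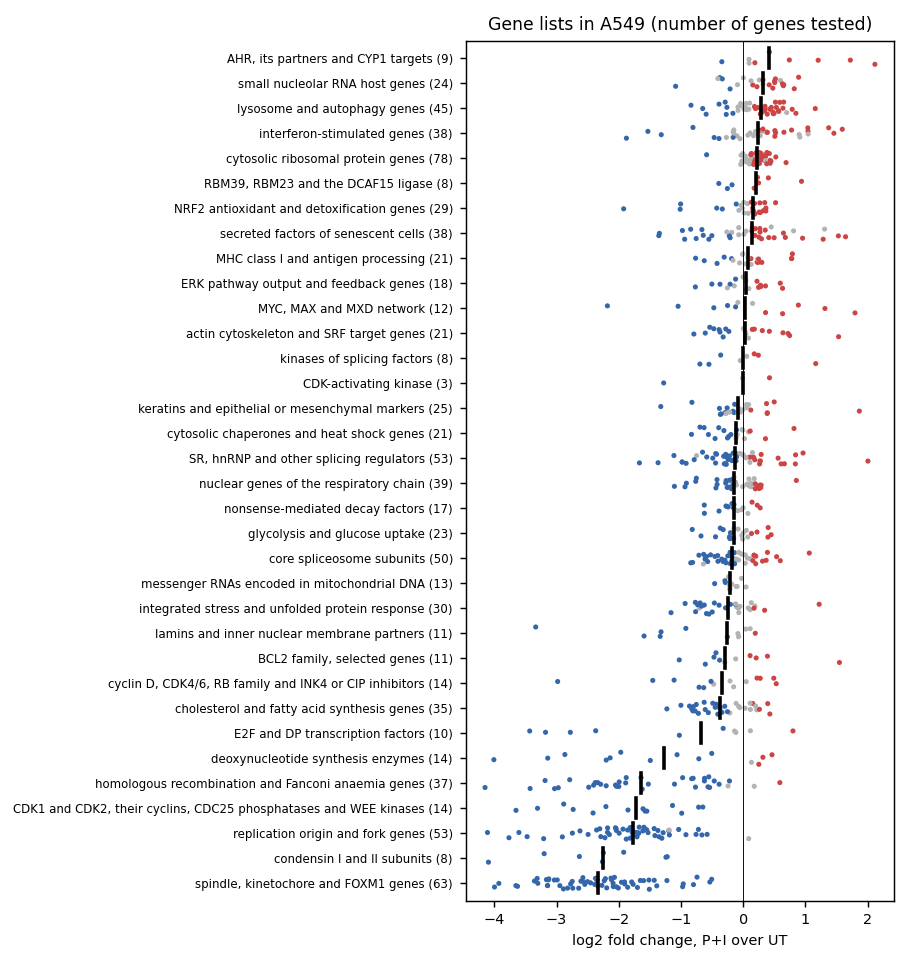
Log2 fold changes of P+I over UT (horizontal axis) for the members of 34 gene lists, 1 point per gene and the number tested in brackets. Red and blue points were called higher and lower, grey points were not called and the black bar is the list median. The lists of mitosis, condensins, replication and the CDK1 and CDK2 cyclins lie wholly or almost wholly to the left, with medians of -1.73 or below, and no list has a median above 0.421.

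The RBM39 arm was read from the mRNAs of the factor, its ligase and the splicing machinery. RBM39 mRNA was about as high with the combination (336 and 336 CPM) as with indisulam alone (365 CPM on average, log2 difference -0.12, adjusted p 0.0274), against 173 and 178 CPM in UT. Of the 8 genes for RBM39, its paralogue RBM23 and the ligase, 5 rose (62.5%, against 27.4% of all genes) and 3 fell (37.5%, against 30.4%). None of the 8 changed 2-fold, and 1 fell with total-count scaling. The scaffold CUL4B rose by 0.40, while the adaptor DDB1 fell by 0.25. DCAF15 averaged 18.3 ± 2.16 CPM in UT and 13.9 ± 2.74 CPM in P+I (SD, n = 2, log2 change -0.39 ± 0.13, adjusted p 0.016), and the call did not hold without the first untreated (adjusted p 0.186) or the second combination library (0.128). The calls of CUL4A (-0.18) and RBX1 (0.18) were each lost without at least one library, CUL4A with p 0.0576 and 0.0768 without the second untreated or the first combination library, and RBX1 with 0.0641, 0.144 and 0.138 without the first untreated, the second untreated or the second combination library.

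Core spliceosome genes moved by small amounts in both directions, with a median log2 change of -0.174. Of 50 genes 11 were higher (22.0%, against 27.4% of all genes) and 27 lower (54.0%, against 30.4%). With total-count scaling 15 were higher and 19 lower. The tri-snRNP genes PRPF3 (51.1 and 55.6 CPM in UT, 106 and 117 CPM in P+I, log2 change 1.06 ± 0.06) and PRPF6 (0.60) and the branch-point binding protein SF1 (0.54) rose most. The U2 protein SNRPA1 (-0.84), the U5 proteins SNRNP40 (-0.81) and EFTUD2 (-0.71) fell most. Against palbociclib alone 30 of the 50 were higher and 3 lower (median 0.199), and against indisulam alone none was higher and 39 were lower (median -0.265). PRPF3 averaged 41.1 CPM with palbociclib and 126 CPM with indisulam, so the combination lay near indisulam. SNRPA1 averaged 45.6 CPM and 69.2 CPM, and the combination, at 39.6 and 43.4 CPM, lay near palbociclib.

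Among 53 splicing regulators of the SR, hnRNP and related families, 14 rose (26.4%, against 27.4% of all genes) and 30 fell (56.6%, against 30.4%). The median was -0.134, and 18 rose and 22 fell with total-count scaling. PTBP2, the neuronal relative of PTBP1 (chr1:96721665-96823738), had the largest rise, from 23.7 and 23.4 CPM to 91.9 and 97.4 CPM (log2 change 2.01 ± 0.06, adjusted p 5.8e-13). MBNL2 rose by 0.96 and RBM4 by 0.84. The epithelial regulator ESRP1 fell from 12.97 and 13.2 CPM to 4.37 and 3.84 CPM (-1.67 ± 0.14), HNRNPH1 by 1.37 and HNRNPH3 by 1.11. For PTBP2 and ESRP1 palbociclib alone left the level at 18.2 and 12.2 CPM, and indisulam alone at 108 and 5.36 CPM. Of 8 kinases of splicing factors 3 rose and 3 fell (37.5% each, against 27.4% and 30.4% of all genes). CLK4 rose from 10.2 and 12.5 CPM to 25.2 and 25.5 CPM (1.17 ± 0.10), CLK2 fell by 0.70, SRPK1 by 0.55 and PRPF4B by 0.36, and DYRK1A was not called (46.4 and 53.1 CPM, then 48.2 and 47.9 CPM). The calls of CLK1 (0.24) and SRPK2 (0.18) each failed without some libraries, CLK1 with adjusted p 0.154 and 0.142 without the first untreated or second combination library and SRPK2 with 0.0838 and 0.0767 without the second of either group.

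The 24 host genes of small nucleolar RNAs make spliced transcripts that are degraded by nonsense-mediated decay. Of these 13 were higher (54.2%, against 27.4% of all genes) and 4 lower (16.7%, against 30.4%), with a median of 0.318. With total-count scaling 14 were higher and 1 lower. The median was 0.214 without the first untreated library and 0.423 without the second. SNHG4 fell by 1.09, from 59.5 and 70.2 CPM to 26.6 and 34.4 CPM. EPB41L4A-AS1 rose by 0.82 and SNHG3 by 0.65. SNHG4 overlaps MATR3 and SNHG3 overlaps RCC1 on the same strand, so the counts of both are uncertain. Of 17 decay factors 3 were higher (17.6%, against 27.4% of all genes) and 9 lower (52.9%, against 30.4%). With total-count scaling 5 were lower. MAGOH, of the exon junction complex, fell by 0.63, and CASC3, of the same complex, rose by 0.23.

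Several genes of stress responses and of the damage response were named by the rule. TP53INP1, a stress-response protein, was at 4.50 and 5.64 CPM in UT and 20.4 and 17.5 CPM in P+I (log2 change 1.91 ± 0.13). EDA2R, of the TNF receptor family, rose from 5.94 and 5.24 CPM to 15.1 and 17.0 CPM (1.51 ± 0.12), and cyclin G1 (CCNG1) from 126 and 130 CPM to 289 and 293 CPM (1.19 ± 0.04). The damage sensors XPC (-0.72) and DDB2 (-0.61), which recognise lesions, and the bypass polymerase POLH (-0.48) fell. For CCNG1 palbociclib alone gave 138 CPM and indisulam alone 252 CPM, and the combination was above both (against indisulam 0.21 on the log2 scale, adjusted p 0.00071). In TP53INP1 palbociclib gave the higher of the single-drug levels (13.4 against 8.14 CPM).

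Among 11 genes of the BCL2 family 4 rose (36.4%, against 27.4% of all genes) and 5 fell (45.5%, against 30.4%), and 4 and 3 did with total-count scaling. BCL2L1 (BCL-XL), which opposes cell death, rose by 0.39 and the death-promoting BCL2L11 (BIM) fell by 0.61. These counts rested on single libraries, with 1 higher without the first untreated library, 2 higher without the second untreated or the second combination library, and 3 lower without the latter.

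Of 12 genes of the MYC, MAX and MXD network 5 were higher and 5 lower (41.7% each, against 27.4% and 30.4% of all genes). With total-count scaling 6 were higher and 4 lower, and with the DESeq2 Wald test 4 were higher and 4 lower. MXD4 rose from 14.6 and 13.1 CPM to 51.1 and 45.6 CPM (log2 change 1.80 ± 0.08), MXD1 by 1.31 and MXI1 by 0.89, whereas MXD3, the S-phase member, fell from 14.2 and 12.8 CPM to 3.04 and 2.91 CPM (-2.18 ± 0.15). MLXIPL, a glucose-sensing member, fell by 1.05 and MLXIP by 0.47, MNT rose by 0.36 and MYCL by 0.63, and MLX fell by 0.25. MYCL (SE 0.23) and MLXIPL (SE 0.18) averaged 1.78 and 3.58 CPM over the 8 A549 libraries, below the 5 CPM of the naming rule. MXD4 averaged 51.5 CPM with palbociclib alone, a difference that did not pass the test (-0.09 on the log2 scale, adjusted p 0.247), and 18.9 CPM with indisulam alone. MYC was at 180 and 181 CPM in UT and 173 and 158 CPM in P+I (log2 change -0.12, adjusted p 0.035), and this call did not hold without the first untreated (adjusted p 0.109), the second untreated (0.137) or the second combination library (0.292).

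**Figure D3:**
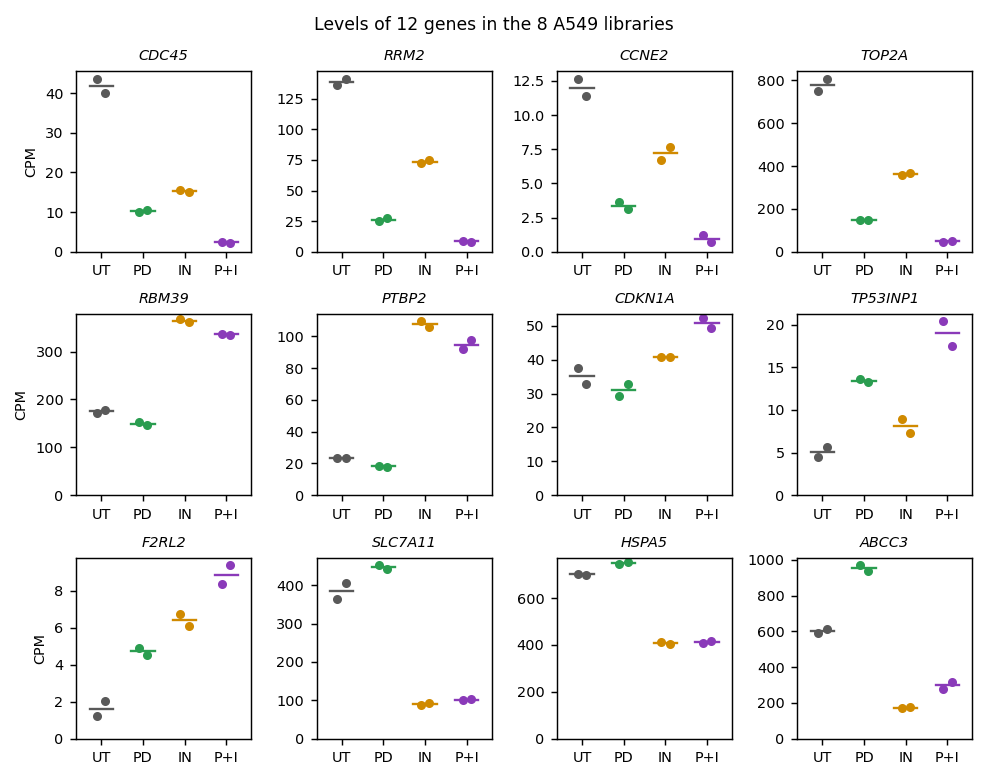
Levels of 12 genes in CPM (vertical axes, each from 0) in the 8 A549 libraries, with 1 point per library and a line at the mean of the 2 libraries of a group. CDC45, RRM2, CCNE2 and TOP2A are lowest in P+I, PTBP2, SLC7A11 and HSPA5 lie beside indisulam alone, and ABCC3 lies between the single drugs.

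Secreted factors of senescent cells did not move as 1 block, with 17 of 38 higher (44.7%, against 27.4% of all genes) and 12 lower (31.6%, against 30.4%) and a median of 0.142. GDF15, a stress cytokine, rose by 0.95 and IGFBP5, a binder of insulin-like growth factors, by 0.68. The EGFR ligands AREG (-0.94, from 75.03 and 72.3 CPM to 39.1 and 37.5 CPM) and EREG (-0.84) and IGFBP3 (-0.76) fell. The chemokine CXCL5 was at 941 and 945 CPM in UT and 643 and 642 CPM in P+I (-0.55 ± 0.04), between palbociclib (1239 CPM) and indisulam (513 CPM). IL6 and CXCL8 were not called. The study tested published senescence lists for enrichment in other libraries, after longer treatment and, in A549, with less indisulam. The counts of these lists at 16 h are therefore no check of that result. Of the lists, Casella had 17 of 35 genes higher (48.6%) and 6 lower (17.1%). Purcell had 17 of 31 (54.8%) and 7 (22.6%), and Hernandez 13 of 28 (46.4%) and 5 (17.9%). Hernandez SASP had 5 of 19 (26.3%) and 6 (31.6%), and Fridman 28 of 66 (42.4%) and 13 (19.7%). The shares over all genes, 27.4% higher and 30.4% lower, were near those of Hernandez SASP. Without the first untreated library 11 of the Purcell genes were higher.

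Lysosome and autophagy genes were higher in 25 of 45 cases (55.6%, against 27.4% of all genes) and lower in 8 (17.8%, against 30.4%). Their median was 0.292. GABARAPL1, an autophagosome protein, rose from 31.2 and 30.2 CPM to 66.5 and 70.6 CPM (1.16 ± 0.06), the fucosidase FUCA1 by 0.85 and the initiating kinase ULK1 from 61.6 and 57.3 CPM to 120 and 85.6 CPM (0.79 ± 0.11). The hydrolases GUSB (-0.84) and NAGLU (-0.60) fell. GABARAPL1 was above both palbociclib (52.5 CPM, log2 difference 0.38) and indisulam (50.4 CPM, 0.44).

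Of 30 genes of the integrated stress and unfolded protein responses 16 fell (53.3%, against 30.4% of all genes). Another 3 rose (10.0%, against 27.4%) and 11 were not called, and the list median was -0.245. The chaperones HSPA5 (BiP, 703 and 699 CPM in UT, 407 and 415 CPM in P+I, log2 change -0.77 ± 0.04) and CALR (-0.77) and EDEM1 (-0.93), which sorts misfolded glycoproteins, fell. DDIT3, ATF6, HERPUD1 and DNAJB9 were among those not called, and PPP1R15A rose by 0.34 and SEL1L by 0.17. HSPA5 was below palbociclib alone (749 CPM) and was not called against indisulam alone (407 CPM, log2 difference 0.01, adjusted p 0.798). ATF3, a stress-induced factor, rose from 8.11 and 6.93 CPM to 18.0 and 17.2 CPM (1.22 ± 0.11). In the cytosol 11 of 21 chaperone genes fell (52.4%, against 30.4% of all genes) and 3 rose (14.3%, against 27.4%). Among the falls was HSP90AA1, one of the largest losses in absolute level (3994 and 3868 CPM to 2641 and 2695 CPM). FKBP4 (-0.83) and STIP1 (-0.70), which serve HSP90, fell as well.

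Antioxidant genes under NRF2 rose in 16 of 29 cases (55.2%, against 27.4% of all genes) and fell in 6 (20.7%, against 30.4%). Their median was 0.153, but the largest single change was a fall. SLC7A11, the cystine importer that feeds glutathione synthesis (chr4:138164097-138242349), went from 365 and 406 CPM to 101 and 103 CPM (log2 change -1.92 ± 0.06, adjusted p 5.8e-13). GCLC, which makes the first step of glutathione synthesis, rose from 285 and 293 CPM to 370 and 374 CPM (0.36 ± 0.04). AKR1B10 lost the most CPM of any called gene (6468 and 6293 to 4613 and 4885 CPM), while AKR1C1 rose by 0.37 and TRIM16 by 0.52. SLC7A11 was at 447 CPM with palbociclib alone and 90.5 CPM with indisulam alone. Genes around the aryl hydrocarbon receptor rose in 6 of 9 cases (66.7%, against 27.4%) and fell in 1 (11.1%, against 30.4%), with a median of 0.421. UGT1A6 rose by 1.21, TIPARP by 0.74 and CYP1B1 by 0.42, and the partner ARNT fell (-0.34).

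Genes of cholesterol and fatty acid synthesis fell in 22 of 35 cases (62.9%, against 30.4% of all genes) and rose in 4 (11.4%, against 27.4%). Their median was -0.38, and 7 rose with total-count scaling. ACACA, which makes malonyl-CoA, went from 146 and 160.5 CPM to 65.4 and 65.2 CPM (-1.23 ± 0.05). HMGCS1 rose by 0.39 and INSIG2 by 0.43. Of 39 nuclear genes of the respiratory chain 18 fell (46.2%, against 30.4% of all genes) and 8 rose (20.5%, against 27.4%). With total-count scaling 13 fell and 12 rose. CYC1 (193 and 193 CPM, then 103 and 98.9 CPM, -0.94 ± 0.04) and NDUFS1 (-0.91) fell, and NDUFA9 rose (0.85). Of 23 glycolysis and glucose uptake genes 10 fell (43.5%, against 30.4% of all genes) and 5 rose (21.7%, against 27.4%), and 8 and 6 did with total-count scaling. ENO2 fell by 0.82 and PFKFB3 rose by 0.40.

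Of 38 interferon-stimulated genes 14 were higher (36.8%, against 27.4% of all genes) and 7 lower (18.4%, against 30.4%), with a median of 0.241. OAS2 rose from 5.58 and 5.13 CPM to 13.6 and 15.9 CPM (1.46 ± 0.12), SAMD9L by 1.37 and IFIT2 by 1.04, while OAS3, which lies beside OAS2, fell from 233 and 239 CPM to 96.2 and 93.1 CPM (-1.32 ± 0.04). Against palbociclib alone 16 of the list were lower and 5 higher, and against indisulam alone 22 were higher and 1 lower. In the MHC class I list, HLA-E rose by 0.79 and ERAP1 by 0.30. Of its 21 genes 8 were higher (38.1%, against 27.4% of all genes) and 5 lower (23.8%, against 30.4%), with 5 higher without the first untreated or the first combination library.

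Cytoskeletal and adhesion genes held some of the largest losses in absolute level. The tubulins TUBA1B (2034 and 1982 CPM to 559 and 604 CPM, log2 change -1.79 ± 0.05) and TUBB (2017 and 1992 CPM to 857 and 896 CPM, -1.19 ± 0.04) fell, with averages of 668 and 914 CPM on palbociclib alone (log2 differences from it -0.20, called, and -0.06, not called), and ACTB fell from 5436 and 5348 CPM to 4114 and 4128 CPM. Of 21 actin and SRF target genes 8 rose (38.1%) and 9 fell (42.9%), against 27.4% and 30.4% of all genes. ANKRD1, a YAP and SRF target, rose by 1.53 and CCN2 by 0.75, while ACTN1 fell by 0.54 and TPM1 by 0.47. TPM1 and the drug efflux pump ABCC3, at 589 and 615 CPM in UT and 279 and 317 CPM in P+I, lay between the single drugs (in PD and IN, TPM1 averaged 347 and 177 CPM and ABCC3 956 and 174 CPM). The monocarboxylate carrier SLC16A4 lay between them as well, at 29.9 and 30.1 CPM, with 65.9 CPM on palbociclib, 11.5 CPM on indisulam and 22.1 and 21.8 CPM in UT.

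Among 25 keratins and epithelial or mesenchymal markers 6 rose (24.0%, against 27.4% of all genes) and 10 fell (40.0%, against 30.4%). With total-count scaling 6 fell, and the median changed sign from -0.0878 to 0.000122. In this list ITGB4, of hemidesmosomes, rose by 0.39, and TJP1 fell by 0.38. The receptor kinase AXL, which is not a member of the list, fell from 148 and 142 CPM to 74.5 and 75.6 CPM (-0.95 ± 0.05). In the ERK output list 7 of 18 rose (38.9%, against 27.4% of all genes) and 5 fell (27.8%, against 30.4%), with 10 and 3 under total-count scaling (3 fell without the second untreated or the second combination library). The ERK phosphatases DUSP5 (0.60) and DUSP6 (0.63) rose and FOSL1 fell by 0.50.

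Ribosomal protein genes rose by small amounts in 61 of 78 cases (78.2%, against 27.4% of all genes) and fell in 1 (1.28%, against 30.4%). Their median log2 change was 0.221, and the largest was 0.69 in RPL22. EEF1A1, the translation elongation factor, was at 6985 and 6812 CPM in UT and 8872 and 8980 CPM in P+I and gained the most CPM of any called coding gene, followed by EIF4B (1350 and 1329 CPM, then 2218 and 2279 CPM, 0.75 ± 0.04). Transcripts of ribosomal proteins and EEF1A1 share sequence with processed copies, so their counts are uncertain. Of 13 mRNAs of mitochondrial DNA none was higher and 3 were lower (23.1%, against 30.4% of all genes). With total-count scaling 1 was lower, and with the DESeq2 Wald test none was. Their median of -0.213 rested on single libraries. It was -0.0519 without the first combination library and -0.395 without the second.

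The 15 largest coding increases above 5 CPM were led by F2RL2, a protease-activated receptor subunit (chr5:76615482-76623413), from 1.24 and 2.03 CPM to 8.37 and 9.37 CPM (log2 change 2.45 ± 0.19, adjusted p 4.2e-08). YY2, an intronless relative of YY1 inside the MBTPS2 gene on the same strand, rose by 2.43, and its counts cannot be told apart from reads of its host. RRAGB, a Rag GTPase that relays amino acids to mTORC1, rose from 8.89 and 8.12 CPM to 41.1 and 39.4 CPM (2.24 ± 0.08). The other increases were GREB1, FBXO32 (atrogin-1), LEPR (the leptin receptor, which overlaps LEPROT), FBXL2, PTBP2, CEACAM1, NAP1L2, SEC31B, TP53INP1, MXD4, OXTR (the oxytocin receptor) and CPA4, with log2 changes down to 1.75. Of the 15, LEPR (8.10 CPM in PD, 9.62 CPM in IN, 19.4 and 16.7 CPM in P+I) and FBXL2 (11.9, 12.1, 24.2 and 26.6 CPM) stood above either drug by about the same amounts (1.15 and 0.91, and 1.09 and 1.07 on the log2 scale).

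The decreases among the 15 largest that are not named above were IQGAP3, a scaffold of dividing cells (-3.82), CENPU, a centromere protein (-3.79), FAM111B, a protease (-3.77), and KNL1, the kinetochore scaffold (-3.50). CCNE2 completed them at 12.7 and 11.4 CPM in UT and 1.20 and 0.703 CPM in P+I.

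Long noncoding genes, 1753 of those tested, were called higher in 475 cases (27.1%, against 27.4% of all genes) and lower in 263. Their median log2 change was 0.235 and their median level 1.05 CPM. The share of rises was thus near that of all genes, while the share of falls was below the 30.4% of all genes. The part of their low level in this was not tested. Of the 13085 coding genes, with a median level of 25.8 CPM, 3663 were higher and 4396 lower. DLEU2, the host of MIR15A and MIR16-1, fell most, from 17.1 and 15.6 CPM to 2.16 and 1.78 CPM (-3.05 ± 0.13). TMPO-AS1 (-2.56), LINC00707 (-2.01), CCDC18-AS1 (-1.96) and NEAT1 followed. NEAT1, the scaffold of paraspeckles, was at 332 and 426 CPM in UT and 108 and 167 CPM in P+I (-1.46 ± 0.15), with 551 CPM on palbociclib and 196 CPM on indisulam. LINC01559 (1.48), BCAN-AS1 (1.40), KMT2E-AS1 (1.25) and URB1-AS1 (1.19) were among the largest rises. Antisense and divergent transcripts cannot be separated from their neighbours here, because the strand setting of the counting is not given in the sources used here.

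Coding genes with more exons were more often lower. With 1 exon block (overlapping exons merged), 296 genes had a median log2 change of 0.17, and 17.2% were lower and 37.8% higher. With more than 20 blocks, 2687 genes had a median of -0.103, and 41.0% were lower and 23.6% higher. The medians of the classes between were 0.0668, 0.0346, 0.0099 and -0.0496 in order of exon number. Counting the exons of the longest transcript instead gave 0.203 at 1 exon and -0.149 above 20. Against palbociclib alone the ends were 0.101 and -0.0951, and against indisulam alone 0.00467 and 0.00898. The median level rose alongside from 12.2 to 36.3 CPM, and its part in the order was not tested.

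**Figure D4:**
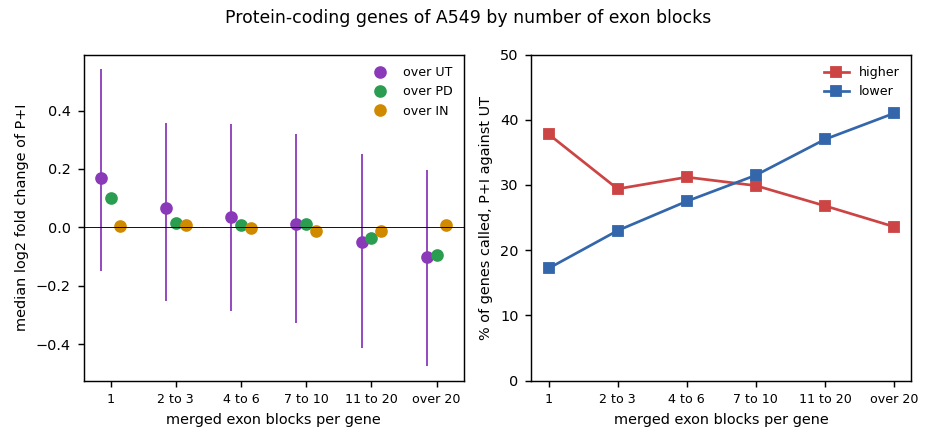
Coding genes by number of merged exon blocks (horizontal axes). On the left, points are medians of the log2 fold change of P+I over UT, PD and IN, and lines are the interquartile range for UT. On the right, the share of genes called higher or lower against UT, in percent. The median over UT goes from 0.17 to -0.103, while the median over IN stays between -0.0119 and 0.00913.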

How the data were processed

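RNA from A549 cells was sequenced after poly(A) selection in strand-specific libraries, read as 75 bp pairs. The authors deposited raw counts of reads per Ensembl gene, 1 table per library, neither normalized nor pooled. Adapters were trimmed with SeqPurge, and the submitters' processing notes name HISAT2 2.2.1, HTSeq and GRCh38; the annotation release and the strand setting are not given in the sources used here. Of the 264 genes covered by the naming rule, 81 overlap another gene on the same strand and 147 on the other, so their counts are uncertain to that extent. Reads outside single genes, 14.2% to 16.4% of all reads in the A549 libraries, were left out of library sizes.

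Symbols, coordinates and exons came from GENCODE 44 (58207 of 58676 identifiers matched) and promoters from RefSeq (GRCh38.p14). The 8 A549 libraries, grouped by their labels, were fitted together with edgeR 4.0.16 in R 4.3.3 after filterByExpr and TMM scaling, with glmQLFit, glmQLFTest and Benjamini-Hochberg adjustment at 0.05. CPM used TMM-scaled library sizes, except in the marker sums and counts at the floor. The difference between A549 and SUM159 was tested as an interaction in a fit of all 16 libraries. On simulated counts for P+I against UT with 15378 genes, edgeR recovered 65% of 100 genes moved by 0.5 on the log2 scale. It recovered 87% of 100 moved by 1, and 4.4% of its calls were false. Only those genes were moved, whereas 57.8% of genes were called in the data, so these rates may not hold for this comparison. The alternatives were other scalings, filters, DESeq2 1.42.0, the 4 libraries alone, a replicate block and each library left out.

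Duplicates differed by more than counting noise (chi-square per degree of freedom 2.27 in UT and 6.21 in P+I). The floor of 3 counts covers counting error alone, because reads copied by PCR are not separate molecules. Genes were named by a rule. It took fixed genes, among them cell cycle regulators, RBM39 and MYC, and all members of 5 short lists. It added the 15 largest increases and 15 largest decreases among coding genes, 5 each among long noncoding genes, 3 each per list and 5 each by CPM difference. Those had to be called, have a symbol and a mean of at least 5 CPM, and show no overlap between the UT and P+I libraries. Members listed with their values from the lists are otherwise given as examples of the counts. The comparison, the lists and the rule were chosen with earlier results of these data known, so no p-value is adjusted over a list alone. Some genes covered by the rule, and 1 of the gene lists, are not reported here.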

Additional observations from a re-analysis of the deposited data

Results flagged for a closer look

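The change from UT to P+I was compared between A549 and SUM159 by an interaction test in 1 fit of all 16 libraries, for the 30 coding genes named by the size of their change in A549. It differed in 27 of them, against 34.3% of all 15744 genes tested. The fall was larger in A549 for 15 genes. The difference (A549 minus SUM159, log2) was -2.27 for IQGAP3, -1.50 for CENPI, -1.24 for NCAPH, -1.19 for TOP2A, -1.15 for MCM10, -1.13 for CDC45, -1.06 for MYBL2, -1.03 for KNL1 and -1.03 for CENPU. It was -0.969 for FAM111B, -0.929 for SPC25, -0.884 for CLSPN, -0.863 for CCNE2, -0.80 for POLE2 and -0.734 for RRM2. Because these genes were chosen for a large change in A549, differences in that direction were favoured by the choice.

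The rise was larger in A549 for 10 genes, by 2.06 for OXTR, 1.25 for YY2, 1.24 for NAP1L2, 0.940 for PTBP2, 0.888 for CEACAM1, 0.792 for CPA4, 0.704 for FBXO32, 0.630 for F2RL2, 0.495 for FBXL2 and 0.465 for LEPR. It was smaller in A549 for SEC31B (-1.28) and TP53INP1 (-1.02). OXTR averaged 1.63 CPM in untreated SUM159 and 1.36 CPM with the combination. TP53INP1 averaged 0.522 and 3.99 CPM there, so its rise in SUM159 started from a low level. Of 11 alternatives the difference was called in 6 for TP53INP1, 9 for CCNE2 and LEPR, 10 for F2RL2, FBXL2 and SPC25 and 11 for the others. For RRAGB, GREB1 and MXD4 no difference was called, though it was in 1 and 3 alternatives for RRAGB and GREB1.

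The level of this comparison depends on which libraries entered the fit. Leaving out any of the 4 A549 libraries moved the median difference over all genes up by 0.134 to 0.153 and the share of higher calls from 38.2% to between 61.9% and 64.5%. Total-count scaling of all libraries moved the median by 0.0059 and gave 39.2% of calls higher. The cause of the shift was not tested, and the 34.3% of all genes above is a count at 1 of these levels.

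Reads that were not assigned to a gene averaged, in P+I, 5.25% of all reads outside any annotated feature, 5.43% ambiguous between features and 5.24% without a unique alignment. In UT the libraries had 4.02% and 4.57%, 5.31% and 5.23%, and 4.92% and 4.72% of these, and in P+I 4.83% and 5.66%, 5.49% and 5.37%, and 5.25% and 5.22%. The share outside features was 5.70% and 5.97% with indisulam alone. These values are given without a test.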

How the results depend on the processing

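The number of genes changed by the combination was 9098. It was 9249 with total-count scaling, 9113 with DESeq2 size factors in edgeR, 9359 without a filter, 8447 with at least 10 counts in every library, 8568 with the 4 libraries alone, 7296 with the DESeq2 Wald test and 7667 to 8566 with 1 library left out. A minimum absolute log2 change of 1 reduced it to 2073. With the replicate block it was 8994. The labels give numbers but no shared culture, and the deviations of same-numbered libraries correlated by 0.114 over 2 pairs, so the numbers are not taken as a pairing. Of the 254 named genes called, 25 lost the call in at least 1 alternative, and no called gene changed sign. The genes that changed sign were not called. CDK6 ranged from -0.0187 to 0.105 with 1 library left out, CDKN2A from -0.507 to 0.364, CDKN1C from -0.661 to 0.522, MNAT1 from -0.0700 to 0.0530 and DYRK1A from -0.143 to 0.0526. With total-count scaling MNAT1 was at 0.0780 and DYRK1A at 0.0399. The cause was not tested. Depth limits statements on genes below 5 CPM, where most increases of at least 2-fold lie, and a lone library left in a group was assumed to vary like the others.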

Other observations

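Zinc finger genes, taken after their values were seen as the 397 coding genes whose symbol begins with ZNF and a number, had 158 members higher (39.8%) and 45 lower (11.3%) with the combination, with a median log2 change of 0.205. Over all 13085 coding genes 3663 were higher and 4396 lower, with a median of -0.0184. Against palbociclib alone, which shares the combination libraries, the ZNF median was 0.198, and against indisulam alone 0.000819. Of 27 coding histone genes recognised by symbol 6 were higher (22.2%) and 8 lower (29.6%), with a median level of 2.74 CPM in these poly(A) libraries.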
